A study of Homo sapiens with 2 samples.

Results

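Messenger RNA was measured for the ABC transporters of the established Ewing sarcoma line SK-ES-1, in slow-cycling cells (SCCs, the slowly dividing fraction) and in the other cells of the line (non-SCCs). The members are the genes whose symbol in the deposited tables is ABC, 1 letter from A to G and a number, without symbols that end in P and a number and without hyphenated symbols. This rule, which uses no measured value, gave 46 genes of the 53737 in the tables. Of these 46, 7 are drug efflux genes (ABCB1, ABCC1 to ABCC5 and ABCG2), and the other 39 were set beside them. Both groups are labelled as wild type and as bone tissue, no drug or other treatment is named for either, and how the slow-cycling cells were isolated is not given in the sources used here. There was 1 library of SCCs and 1 library of non-SCCs from a single cell line, so no difference below has a replicate check, none was tested, and no p-value is given.

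ABC transporters are proteins that bind ATP in a pair of conserved cassettes and, in most families, use its hydrolysis to move a substrate across a membrane. The ABCA family moves lipids, several ABCB and ABCC members and ABCG2 pump drugs, conjugates or bile components out of cells, the ABCD family serves peroxisomes and the lysosome, and other ABCG members move sterols. ABCE1 and the ABCF proteins have the cassettes but no membrane-spanning part and act in translation. In tumours the family is best known for P-glycoprotein (ABCB1), MRP1 (ABCC1) and BCRP (ABCG2), which export chemotherapy drugs. ABCG2 and ABCB1 are also the pumps behind the dye-efflux assays used to look for stem-like cells.

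Levels are given in per-million units, obtained by undoing the logarithm of the deposited values, which were taken as log2(level + 1). The summed levels came to 983638 in the SCC library and 984120 in the non-SCC library. Values above 0 and below 0.3, of which there were 464 and 444, had no step in common, since no single value occurred more than 4 times in the SCC library or 5 times in the non-SCC library. They are therefore not whole reads times 1 constant, which does not by itself show a scaling by length. Levels of different genes are compared here as levels per transcript length, an assumption, since the sources do not state the scale. The read depth was unknown. All 13 protein-coding genes of mitochondrial DNA had a value of 0 in each table, and a member at 0 is therefore called listed at 0 and not silent. The Ewing sarcoma markers fitted the label of the cell line: the 6 genes NR0B1, NKX2-2, CD99, STEAP1, LIPI and PRKCB summed to 962 units in SCCs and 997 in non-SCCs, none at 0. The name SCCs was taken from the labels. None of the 5 proliferation markers, given below, differed by 1.5-fold between the libraries. In RNA from many cells, fewer cells that express a gene and less of its RNA per cell cannot be told apart.

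The promoters that follow are the RefSeq sequences (GRCh38.p14) from 250 bases before to 50 bases after a gene's start, read on the gene's own strand. They were chosen after the levels were seen: ABCA5 and ABCA3 have the largest differences between the libraries, ABCA6 is a close relative of ABCA5 on the same stretch of chromosome 17 and near 0, ABCC4 is the drug efflux gene with the largest difference, and ABCF2 has the lowest ratio. Capitals mark 2 motifs on either strand, the antioxidant response core TGACNNNGC and the hypoxia response core, ACGTG or GCGTG, and in ABCA3 a copy of each overlap. A stretch in capitals can hold the reverse complement of its motif.
ABCA5, chr17:69327084-69327383, minus strand: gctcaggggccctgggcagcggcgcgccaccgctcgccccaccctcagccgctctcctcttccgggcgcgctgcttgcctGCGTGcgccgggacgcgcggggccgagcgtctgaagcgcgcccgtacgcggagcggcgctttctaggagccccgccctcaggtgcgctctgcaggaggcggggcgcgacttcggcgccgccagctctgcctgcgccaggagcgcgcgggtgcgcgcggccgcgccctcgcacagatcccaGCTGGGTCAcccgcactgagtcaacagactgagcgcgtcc
ABCA6, chr17:69141846-69142145, minus strand: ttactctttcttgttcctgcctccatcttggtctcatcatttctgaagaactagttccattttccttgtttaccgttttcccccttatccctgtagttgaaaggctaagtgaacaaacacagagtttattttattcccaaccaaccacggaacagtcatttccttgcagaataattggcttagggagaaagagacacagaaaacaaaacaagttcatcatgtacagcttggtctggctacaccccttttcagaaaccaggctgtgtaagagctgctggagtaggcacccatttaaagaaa
ABCA3, chr16:2340679-2340978, minus strand: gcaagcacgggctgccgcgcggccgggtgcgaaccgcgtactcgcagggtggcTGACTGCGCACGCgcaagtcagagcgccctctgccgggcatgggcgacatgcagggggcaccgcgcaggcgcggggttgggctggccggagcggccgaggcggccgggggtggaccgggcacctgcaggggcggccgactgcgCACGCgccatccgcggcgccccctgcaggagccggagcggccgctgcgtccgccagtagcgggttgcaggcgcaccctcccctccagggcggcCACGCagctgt
ABCC4, chr13:95301402-95301701, minus strand: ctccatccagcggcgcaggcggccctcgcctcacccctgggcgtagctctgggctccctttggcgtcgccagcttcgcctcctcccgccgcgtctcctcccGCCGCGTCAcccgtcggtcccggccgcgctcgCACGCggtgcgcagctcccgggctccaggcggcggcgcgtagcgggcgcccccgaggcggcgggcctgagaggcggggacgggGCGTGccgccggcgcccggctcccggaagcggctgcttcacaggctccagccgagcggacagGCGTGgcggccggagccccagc
ABCF2, chr7:151227156-151227455, minus strand: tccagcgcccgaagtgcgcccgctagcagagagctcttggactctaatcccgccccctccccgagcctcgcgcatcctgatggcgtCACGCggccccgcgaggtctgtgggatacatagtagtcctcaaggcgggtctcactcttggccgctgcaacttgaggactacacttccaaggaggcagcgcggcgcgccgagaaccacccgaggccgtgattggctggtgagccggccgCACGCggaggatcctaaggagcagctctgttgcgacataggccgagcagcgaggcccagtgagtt

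The total ABC transporter level did not differ at this rounding, at 801 units in SCCs and 801 in non-SCCs, and its make-up was close as well. Of the 46 genes, 24 were above 0 in at least 1 library and 22, or 47.8%, were listed at 0 in both. Among all 19363 protein-coding genes of the tables, 34.6% were listed at 0 in both. The genes tested are those with at least 1 unit in at least 1 library, a filter that 22 members passed. ABCA6 and ABCA13 were above 0 but below it. A tested member can have passed through the library in which it is higher, and ABCA3 did so, since it reached 1 unit in SCCs alone. The log2 ratio of a gene is its log2(level + 1) in SCCs minus that in non-SCCs, a scale that understates the difference of low genes.

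Among the 22 tested members, ABCA5 and ABCA3 were at least 1.5-fold higher in SCCs and none was at least 1.5-fold lower. Over all 13444 tested genes, 5.38% were that much higher and 1.41% that much lower. A lower threshold, a log2 ratio of 0.32, was passed upward by 4 members, ABCA8 among them, and downward by none, against 13.5% and 4.99% of tested genes. The other 18, or 81.8%, lay within it, as did 81.5% of all tested genes. The median log2 ratio was 0.05 for tested members and 0.03 for all tested genes. A ratio above 0 was found for 13 members and one below 0 for 9, against 56.2% and 43.8% of tested genes. The shares of members past either threshold and above 0 were thus near those of the tables as a whole.

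**Figure D1:**
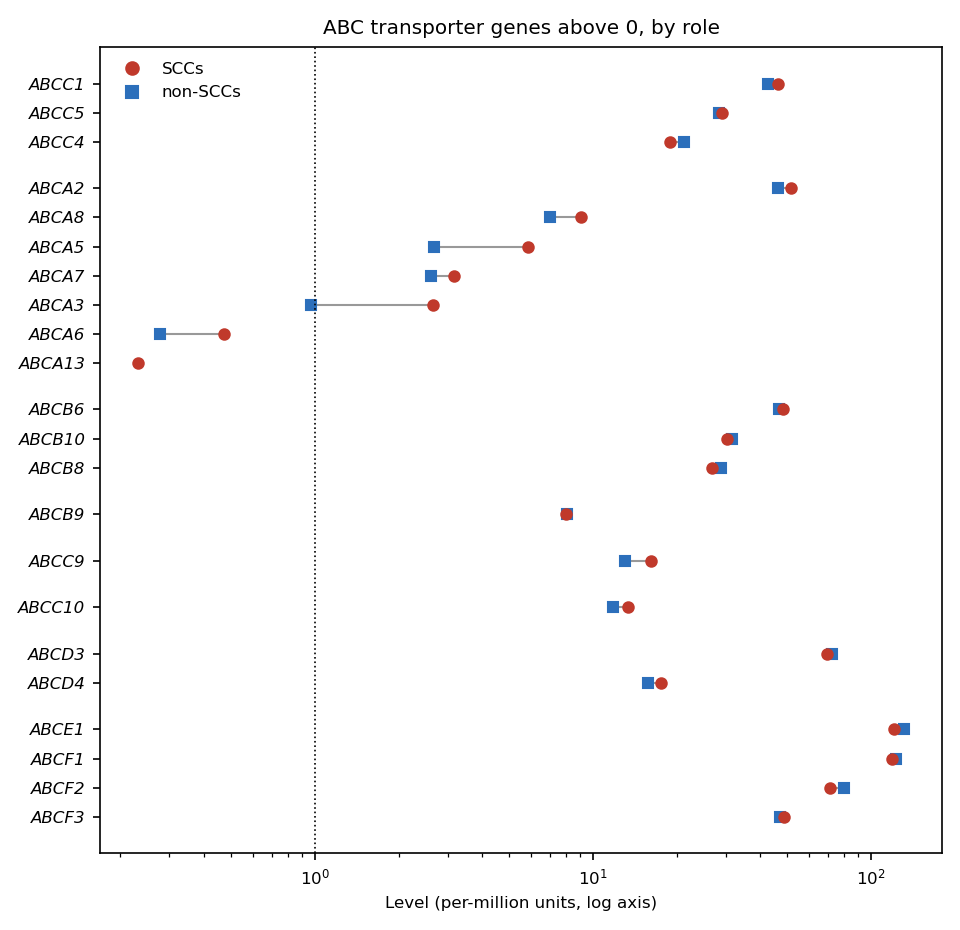
Level of the ABC transporter genes described here that were above 0, in per-million units on a log axis, with circles for SCCs and squares for non-SCCs (1 library each) and genes grouped by role from drug efflux at the top to soluble proteins at the bottom; the dotted line is the filter of 1 unit. The circles and squares nearly coincide for most genes and lie farthest apart for ABCA5 (5.84 and 2.68) and ABCA3 (2.65 and 0.971), and ABCA13, listed at 0 in non-SCCs, has a circle alone.

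Of the 7 drug efflux genes, ABCC1, ABCC5 and ABCC4 were measured above 0 and ABCB1, ABCC2, ABCC3 and ABCG2 were listed at 0 in both libraries. ABCC1 (MRP1), which exports glutathione conjugates and anthracyclines, was at 46.2 units in SCCs and 42.5 in non-SCCs. It lies on chromosome 16 (15949143 to 16143053) and its level exceeded that of 71.1% of tested genes. ABCC5 (MRP5), an exporter of cyclic nucleotides and nucleotide analogues on chromosome 3 (183919934 to 184017884), was at 29 units in SCCs and 28.4 in non-SCCs. ABCC4 (MRP4), which exports cyclic nucleotides and prostaglandins, was the one drug efflux gene with the lower level in SCCs, at 18.9 units against 21.2 in non-SCCs. It lies on chromosome 13 (95019835 to 95301451), and its promoter is printed above.

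The log2 ratios were 0.12 for ABCC1, 0.03 for ABCC5 and -0.16 for ABCC4. When tested genes were put into 10 bins by mean level, ABCC1 had a ratio above that of 77.3% of the genes in its bin, ABCC5 above 48.3% and ABCC4 above 13.4%. The sign of the ABCC5 ratio turned when the median ratio of all genes was set to 0 and when the level trend was removed, to -0.004 and -0.010. The summed drug efflux level was 94.0 units in SCCs and 92.2 in non-SCCs, which is 11.7% and 11.5% of the ABC total.

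P-glycoprotein (ABCB1, chromosome 7, 87503017 to 87713295) and BCRP (ABCG2, chromosome 4, 88090264 to 88231626) were thus listed at 0 in SCCs and in non-SCCs. The same was true of ABCC2 and ABCC3, relatives of ABCC1 best known from the bile-facing and blood-facing membranes of liver cells. ABCB5, a relative of ABCB1 used as a marker of tumour-initiating cells in melanoma, was also listed at 0 in both libraries. No fold can be given for these genes.

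Set against the other members, the drug efflux genes had a similar median difference. Their median log2 ratio over 3 tested genes was 0.03, against 0.05 over the 19 other tested members, a difference of -0.02. None of the 3 reached the log2 threshold of 0.32, against 4 of the 19 and 13.5% of all tested genes upward. The 3 are higher in level than ABCA3, ABCA5 and ABCA8, which did reach it, and ratios of all tested genes spread more widely at low levels. Of the 7 drug efflux genes 57.1% were listed at 0 in both libraries, against 46.2% of the 39 others, and these shares rest on 4 and 18 genes. The level of the 39 other members summed to 707 units in SCCs and 709 in non-SCCs.

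**Figure D2:**
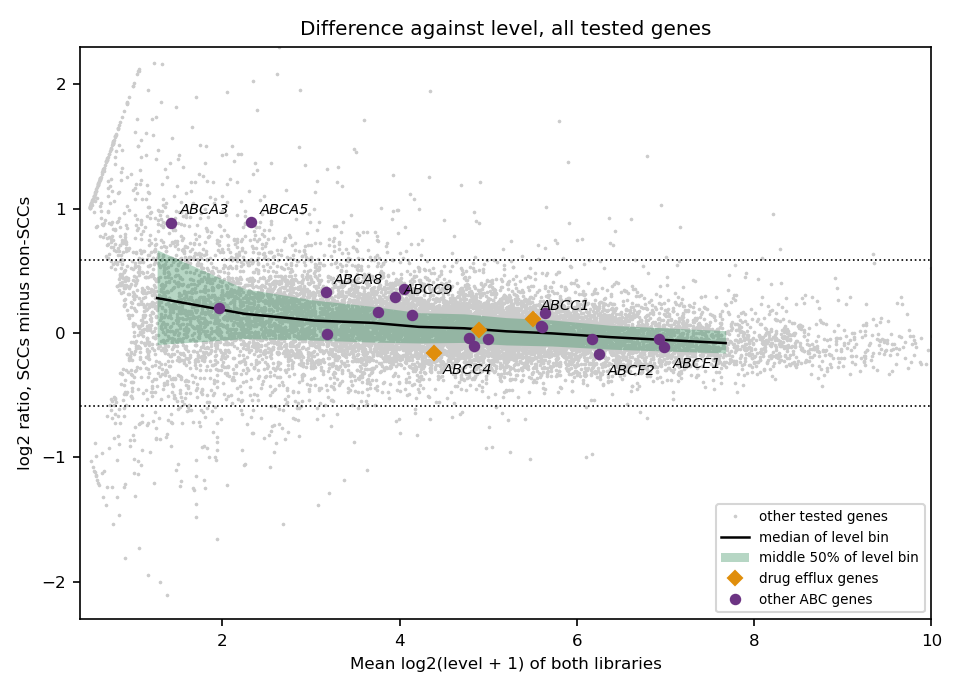
Log2 ratio (SCCs minus non-SCCs) against the mean log2(level + 1) of both libraries for all tested genes in grey, with drug efflux genes as diamonds and other ABC genes as circles; the line and band are the median and middle 50% of 10 level bins, the dotted lines mark 1.5-fold, and 122 genes lie outside the axes. ABCA3 and ABCA5 lie above the upper dotted line at the low-level end, where the band is widest, and the drug efflux genes lie between -0.16 and 0.12.

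The ABCA family, transporters of lipids, held the members with the largest differences. All 5 tested ABCA genes had a higher level in SCCs, where 56.2% of all tested genes did. Their log2 ratios ran from 0.16 to 0.89, with a median of 0.33. One of the 5, ABCA3, reached the filter in SCCs alone. The 12 ABCA members summed to 73.1 units in SCCs and 59.7 in non-SCCs, a ratio of 1.22. ABCA5, a lipid transporter of lysosomes and late endosomes on chromosome 17 (69244311 to 69327133), was at 5.84 units in SCCs and 2.68 in non-SCCs, a 2.18-fold difference in level and a log2 ratio of 0.89. ABCA3, which loads surfactant lipids into the lamellar bodies of the lung, lies on chromosome 16 (2275881 to 2340728). It was at 2.65 units in SCCs and 0.971 in non-SCCs, a 2.73-fold difference in level and a log2 ratio of 0.89 as well.

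ABCA8, a transporter linked to sphingolipids and cholesterol efflux, was at 9.06 units in SCCs and 7.01 in non-SCCs, with a log2 ratio of 0.33. ABCA7, a phospholipid transporter known from Alzheimer disease genetics, was at 3.17 and 2.62 units in SCCs and non-SCCs, with a log2 ratio of 0.20. ABCA2, a lysosomal transporter abundant in brain, was the most abundant ABCA gene, at 51.6 units in SCCs and 46.1 in non-SCCs, with a log2 ratio of 0.16. The 3 differences are below 1.5-fold.

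The level of a gene moved with its ratio in the tables as a whole, and most ABCA genes are low. The median log2 ratio was 0.28 in the lowest of the 10 level bins, which holds ABCA3, 0.16 in the next, which holds ABCA5 and ABCA7, and -0.08 in the highest. In the bins of ABCA3 and ABCA5 together, 20.9% of 2689 genes were at least 1.5-fold higher in SCCs. ABCA3 had a ratio above 82.9% of the genes of its bin and ABCA5 above 96.4%, while ABCA7 stood above 55.8%. With the median of each bin subtracted, the median log2 ratio of the 5 ABCA genes was 0.23. What part the level trend has in these differences was not tested.

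Markers of fibroblasts and pericytes, cells in which ABCA8 and ABCC9 are also known, moved in the same direction. Of the 9 markers, 7 were tested and all 7 had the higher level in SCCs, where 56.2% of all tested genes did. Their median log2 ratio was 0.35. COL1A2, the most abundant, was at 144 units in SCCs and 139 in non-SCCs, a log2 ratio of 0.05. COL3A1, at 49.9 and 47.4 units in SCCs and non-SCCs, had a log2 ratio of 0.07. The whole list summed to 276 units in SCCs and 248 in non-SCCs. COL1A1, at 3.19 units in SCCs and 1.15 in non-SCCs, and FAP, at 3.67 and 1.74 units in SCCs and non-SCCs, were past 1.5-fold. Both are low in level, and 20.9% of genes in the level bins of ABCA3 and ABCA5 were at least 1.5-fold higher. PDGFRA was listed at 0 in both libraries, and LUM was at 0.0175 units in SCCs and listed at 0 in non-SCCs. The endothelial markers PECAM1, CDH5, VWF and KDR were listed at 0 in both libraries, as were PTPRC and CD3E of leukocytes. The 4 leukocyte markers summed to 8.88 units in SCCs and 6.66 in non-SCCs, and the 4 epithelial ones to 20.2 and 21.2 units in SCCs and non-SCCs. The 5 proliferation markers, MKI67 and TOP2A among them, summed to 1387 units in SCCs and 1390 in non-SCCs, with a median log2 ratio of 0.18. TOP2A (234 units in SCCs and 184 in non-SCCs), MKI67 (122 and 107 units in SCCs and non-SCCs) and CCNB1 (314 and 276 units in SCCs and non-SCCs) were higher in SCCs, all by less than 1.5-fold. PCNA (457 and 538 units in SCCs and non-SCCs) and MCM2 (261 and 285 units in SCCs and non-SCCs) were lower in SCCs, also by less than 1.5-fold. Both libraries come from the established cell line SK-ES-1, so the marker genes are not read here as a measure of other cell types. Their relation to the ABCA and ABCC9 values was not tested.

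A run of 5 ABCA genes, ABCA8, ABCA9, ABCA6, ABCA10 and ABCA5 in that order, lies on chromosome 17 between 68867289 and 69327133 (GRCh38). The members at its ends were the ones with the higher levels. ABCA8 was at 9.06 units in SCCs and 7.01 in non-SCCs and ABCA5 at 5.84 and 2.68 units in SCCs and non-SCCs, and both had a ratio above 0. Between them ABCA6 was at 0.473 units in SCCs and 0.278 in non-SCCs, and ABCA9 and ABCA10 were listed at 0 in both. The 5 genes summed to 15.4 units in SCCs and 9.97 in non-SCCs, a ratio of 1.54. In the GENCODE release 29 annotation, 318 exon bases of ABCA5 are shared with ABCA10 on the same strand, and 158 of ABCA8 with an antisense gene listed at 0, so reads there could be assigned in more than 1 way.

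The promoters printed above differ in composition along this run. The ABCA5 promoter has a GC content of 76.3% and a CpG ratio (observed over expected CpG dinucleotides) of 1.03, while that of ABCA6 has 41.7% and 0.16. The promoter of ABCA9 has 39.7% GC and the lower of the 2 for ABCA10 has 25%. Promoter entries were matched for 35 of the 46 members. The 22 promoters of tested members had a median GC content of 66.2% and a median CpG ratio of 0.92, against 50.7% and 0.32 for the 29 promoters of members listed at 0 in both libraries. For all tested protein-coding genes the medians were 65.0% and 0.82, and for protein-coding genes listed at 0 they were 55.7% and 0.35. The contrast among ABC genes thus runs the same way as in the tables as a whole.

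The antioxidant response core TGACNNNGC was found in 40.9% of the 22 promoters of tested members and in 14.3% of the 14250 promoters of tested protein-coding genes. By gene, it was in a promoter of 9 of 18 tested members that have an entry and of 19.2% of tested protein-coding genes. The 9 include ABCA5 and ABCA3, higher in SCCs, and ABCC4, lower in SCCs. Among members listed at 0 in both libraries it was in 10.3% of 29 promoters, and by gene in 3 of 15. The shares of members rest on few genes and were not tested. The hypoxia response core, ACGTG or GCGTG, was in 86.4% of the 22 promoters and in 61.4% of those of tested protein-coding genes, ABCF2 and ABCA5 included. The cyclic AMP response core (TGAC followed by GTCA) was in 1 of the 22 promoters, and a direct repeat of AGGTCA with 4 bases between, the form that liver X receptors bind, was in none. Both strands were searched. A match describes these letters and is not a bound site.

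Among the ABCB genes outside drug efflux, those of mitochondria and the lysosomal ABCB9 had levels above 0, and the values given here lay close in both libraries. ABCB6, a porphyrin transporter, was at 48.3 units in SCCs and 46.5 in non-SCCs. Of its 5234 exon bases, 2864 are shared with another gene model on the same strand, so its level is uncertain. ABCB10, needed for haem synthesis, was at 30.3 units in SCCs and 31.5 in non-SCCs. ABCB8, which has been tied to mitochondrial iron and potassium handling, was at 26.7 units in SCCs and 28.8 in non-SCCs. The log2 ratios of these 3 genes ran from -0.10 to 0.05. ABCB9, a lysosomal peptide transporter, was at 8.03 and 8.09 units in SCCs and non-SCCs. ABCB9 shares 1590 exon bases with ARL6IP4 and 1656 with OGFOD2 on the opposite strand, and whether the counting used strand is not given, so its level is uncertain. ABCB4 and ABCB11, which export phospholipid and bile salts from liver cells, were listed at 0 in both libraries.

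The closest relatives without an ABC symbol, which are not among the 46, were near 0. TAP1 and TAP2, which load peptides onto MHC class I, and the chloride channel CFTR were listed at 0 in both libraries except for TAP2 at 0.0718 units in SCCs.

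Of the ABCC genes outside drug efflux, ABCC9 and ABCC10 were measured. ABCC9 (SUR2), a regulatory subunit of ATP-sensitive potassium channels rather than a pump, was at 16.1 units in SCCs and 13.0 in non-SCCs, with a log2 ratio of 0.29 that stood above 85.2% of genes in its level bin. Of the channel-forming partners, KCNJ8 was listed at 0 in both libraries and KCNJ11 was at 1.21 units in SCCs and 0.823 in non-SCCs. ABCC10 (MRP7), an exporter reported to carry taxanes, was at 13.4 units in SCCs and 11.8 in non-SCCs, a log2 ratio of 0.17. ABCC6, ABCC8, ABCC11, ABCC12 and ABCC13 were listed at 0 in both libraries. RefSeq lists ABCC13 as a transcribed pseudogene although its symbol meets the rule. ABCC6 has near-identical pseudogene copies, among which reads can be split, but ABCC6P1 and ABCC6P2 were listed at 0 in both libraries too. How reads shared with such copies were counted is not given. ABCC6 lies next to ABCC1, with 6511 bases between them.

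Of the peroxisomal and lysosomal genes, ABCD3 and ABCD4 differed little. ABCD3 (PMP70), which imports branched-chain acyl-CoA into peroxisomes, was the more abundant, at 69.6 units in SCCs and 72.1 in non-SCCs. ABCD4, which serves vitamin B12 export from the lysosome, was at 17.6 units in SCCs and 15.8 in non-SCCs, with a log2 ratio of 0.15. Of its 8769 exon bases, 624 are shared with another gene model on its strand. The partners of ABCD4 in vitamin B12 handling were LMBRD1, at 34.9 units in SCCs and 31.8 in non-SCCs, and MMACHC, at 17.8 and 21.2 units in SCCs and non-SCCs. ABCD2 was listed at 0 in both libraries.

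The 3 most abundant members were soluble ones. Of the 4 soluble members, 3 were lower in SCCs by small amounts, where 43.8% of all tested genes were lower. The median log2 ratio of all tested genes was -0.08 in the highest level bin, which holds ABCE1 and ABCF1. It was -0.03 in the next bin down, which holds ABCF2. ABCE1, which splits ribosomes for recycling, was the most abundant member in both libraries, at 121 units in SCCs and 131 in non-SCCs, a log2 ratio of -0.11. ABCF1, a translation initiation factor partner, was at 119 units in SCCs and 123 in non-SCCs. ABCF2, a cytosolic protein of the same family, had the lowest ratio of the tested members, -0.17, at 70.9 units in SCCs and 79.9 in non-SCCs. ABCF3, linked to antiviral defence, was at 48.6 units in SCCs and 46.9 in non-SCCs, with a log2 ratio of 0.05. The 4 genes summed to 359 units in SCCs and 381 in non-SCCs, or 44.9% and 47.6% of the ABC total.

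ABCF2 stood above 18.3% of genes in its level bin, ABCE1 above 39.1% and ABCF1 above 59.0%. With the level trend removed, the ABCF1 ratio turned to 0.031, and the median of the 4 genes was 0.00 with the bin medians subtracted. The ribosome rescue partners PELO and HBS1L were at 14.6 and 17.9 units in SCCs and 13.3 and 16.1 in non-SCCs. The release factor ETF1 was at 106 units in SCCs and 109 in non-SCCs. Of the exon bases of ABCE1, 469 are shared with ANAPC10 and 276 with OTUD4 on the opposite strand, so the ABCE1 level carries the uncertainty named for ABCB9. ABCF2 shares 1914 of its 4177 exon bases with another gene model on its own strand, an overlap that counting by strand does not resolve.

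**Figure D3:**
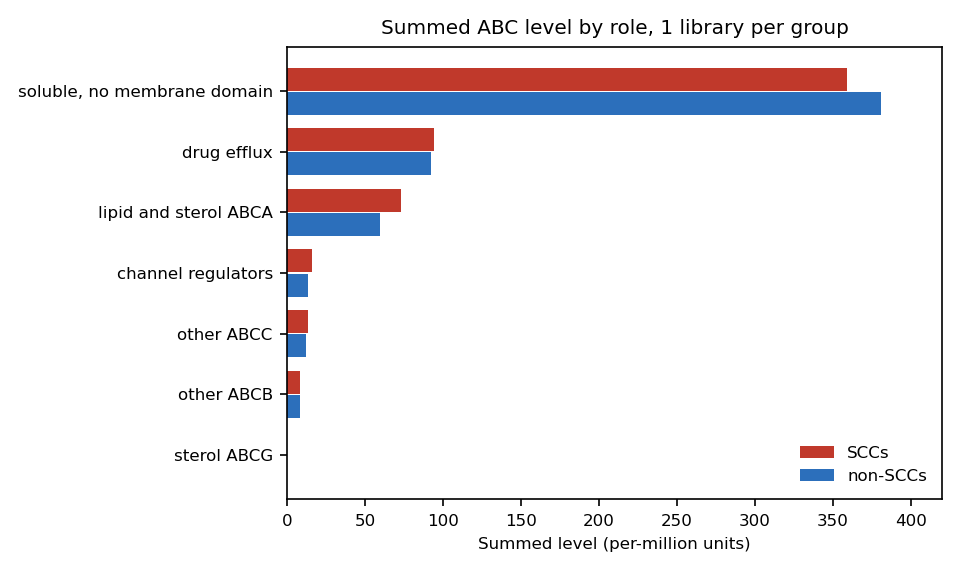
Summed level of the ABC genes of a role in per-million units, with the SCC bar above the non-SCC bar (1 library each), for 7 of the roles. Roles not drawn lie between some of those shown. The order of the 7 is the same in both libraries, led by the soluble members at 359 and 381 units. The ABCA bars, at 73.1 and 59.7, differ by the ratio of 1.22 given above.

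The ABCG family was listed at 0 throughout. Besides ABCG2, this covers ABCG1 and ABCG4, which efflux sterols, and ABCG5 and ABCG8, the intestinal and hepatic sterol pair whose genes overlap at their starts. ABCA1, the main cholesterol exporter to apolipoproteins, was listed at 0 in both libraries too, as were ABCA4, ABCA9, ABCA10 and ABCA12. ABCA13 was at 0.232 units in SCCs and listed at 0 in non-SCCs. ABCA1 and ABCG1 are the classical targets of the liver X receptors, of which NR1H2 was at 27.3 units in SCCs and 27.2 in non-SCCs and NR1H3 at 1.0 and 0.723 units in SCCs and non-SCCs.

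The order of levels was nearly the same in the libraries. ABCE1, ABCF1, ABCF2 and ABCD3 held the first 4 places in both, 13 of the 22 tested members had the same place in both, and none moved by more than 2 places. With 1 library per group there is no spread against which neighbours in this order could be told apart. Of the 46 members, 17 were at 10 units or more in both libraries.

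Gene lists around the transporters were examined in the same way. Of 8 sterol-sensing genes, all tested, none passed 1.5-fold, and the median log2 ratio was 0.05. Of 11 sensors of xenobiotics and stress, 8 were tested and 1 was at least 1.5-fold higher. This was AHR, the aryl hydrocarbon receptor, at 4.49 units in SCCs and 2.19 in non-SCCs. NR1I2 (PXR) and NR1I3 (CAR), the nuclear receptors that induce ABCB1 and ABCC2 in liver, were listed at 0 in both libraries. NFE2L2 (NRF2), which drives several ABCC genes under oxidative stress, was at 37.8 units in SCCs and 35.2 in non-SCCs.

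Of 12 genes of glutathione synthesis and conjugation, 10 were tested and none passed 1.5-fold, with a median log2 ratio of -0.02. GSTP1, the abundant glutathione transferase, was at 870 units in SCCs and 940 in non-SCCs. MGST1, a microsomal glutathione transferase, had the lowest ratio of the list at -0.44, with 47.4 units in SCCs and 64.8 in non-SCCs. Of 17 partner genes in the tables, 15 were tested and 2 were at least 1.5-fold higher. MVP, the major vault protein, also known as the lung resistance-related protein of drug-resistant cells, was at 6.08 units in SCCs and 1.71 in non-SCCs, and APOE, an apolipoprotein acceptor of exported cholesterol, at 30.2 and 12.1 units in SCCs and non-SCCs. The levels differed 3.56-fold for MVP and 2.50-fold for APOE. MVP, like AHR, is low in level, and 20.9% of genes in the level bins of ABCA3 and ABCA5 were at least 1.5-fold higher.

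Uptake carriers, which bring nutrients and some drugs in, were lower in 6 of 7 tested cases, by less than 1.5-fold, where 43.8% of all tested genes were lower, and their median log2 ratio was -0.11. The folate and antifolate carrier SLC19A1 was at 26.0 units in SCCs and 32.2 in non-SCCs. The nucleoside carrier SLC29A1 was at 78.2 units in SCCs and 93.2 in non-SCCs. The exception was SLCO3A1, at 10.4 and 8.28 units in SCCs and non-SCCs. Over all 48 tested genes of these 5 lists, 3 passed 1.5-fold upward and none downward, where 5.38% and 1.41% of all tested genes did.

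**Figure D4:**
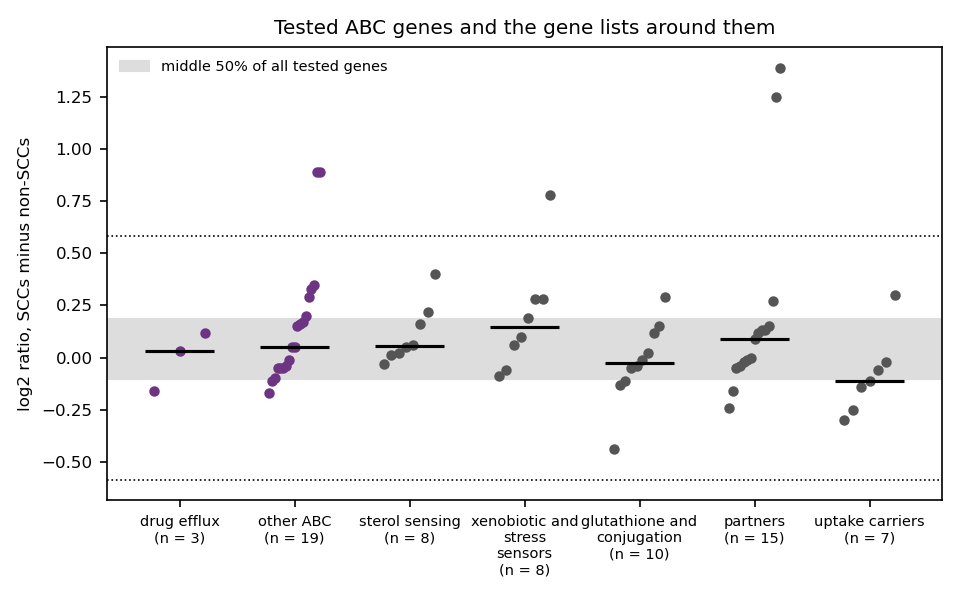
Log2 ratio (SCCs minus non-SCCs) of each tested gene in the drug efflux group, the other ABC members and 5 surrounding gene lists, with a bar at each median; the grey band is the middle 50% of all tested genes and the dotted lines mark 1.5-fold. The medians lie between -0.11 and 0.14, and the genes above the upper line are ABCA3, ABCA5, AHR, MVP and APOE.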

How the data were processed

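The 2 deposited tables hold a gene symbol, an Entrez gene ID and 1 value per line, which the authors call normalized, per the file headers. Libraries were made from polyadenylated RNA with a stranded kit, per the labels' protocols, and hg38 is the build that the submitters' processing notes name. Aligner, quantifier and annotation were not given in the sources used here. The deposited values were read as log2 values because of their range and sums. They carry no depth, so no counting interval was computed. Each table was tied to its group through its sample. The column headers say LRC and non-LRC, terms that the sources do not explain.

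Lines of 1 gene ID with locus suffixes were added, giving 53737 genes, 51252 of them matched in RefSeq (GRCh38.p14), all 46 members among them. Coding lengths and exon overlaps came from GENCODE release 29, promoters from RefSeq. The ratio is a difference of log2(level + 1), with a filter of 1 unit in either library. Counting past a fold was checked on simulated data. Named are the 7 drug efflux genes, the 8 highest and the 8 lowest tested members by ratio, the 5 most abundant, and list genes past 1.5-fold; others are given to account for the members or were chosen after their values were seen. Some members that the rule names are not reported here. The members and lists were chosen with earlier results of these data known. Python 3.11.15, pandas 2.3.3 and numpy 2.4.6 were used. The alternatives were scaling, filters, pseudocount, level and length trends, protein-coding genes alone, locus lines and fold thresholds.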

Additional observations from a re-analysis of the deposited data

How the results depend on the processing

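No paired analysis was possible because each group has 1 library and no test was run. No library could be left out for the same reason. The count of members at least 1.5-fold higher, 2 as reported, was 1 among genes with at least 5 units in a library (ABCA3 no longer qualifies), 4 at a log2 threshold of 0.32 and 0 at 2-fold on the log2(level + 1) scale, and 2 under the other alternatives. In the levels themselves ABCA5 and ABCA3 differ by more than 2-fold (2.18 and 2.73). The count of members at least 1.5-fold lower was 0 under all 13 alternatives. The median log2 ratio of tested members ran from 0.006 to 0.084, and the drug efflux median minus that of the other members from -0.118 to -0.022. A gene's own ratio cannot change under the alternatives that alter only the filter or the set of genes. Values under these alternatives are counted in what follows but say nothing on how stable a ratio is. Of 196 values of 18 named members under the alternatives, 192 kept their direction and their side of 1.5-fold. The other 4 turned sign near 0: ABCC5 to -0.004 after centring all tested genes on a median of 0, to -0.010 with the level trend removed and to -0.052 with the level and coding length trends removed, and ABCF1 to 0.031 with the level trend removed. ABCA5 ran from 0.690 to 1.093 and ABCA3 from 0.608 to 1.360, where the highest values are those with a pseudocount of 0.1. The read depth is unknown, so a value of 0 here sets no upper limit on a gene's level.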

Other observations

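Of 16 table symbols that begin like an ABC gene but are pseudogenes or antisense genes, 15 were listed at 0 in both libraries. The exception was the transcribed pseudogene ABCA11P, at 7.10 units in SCCs and 7.48 in non-SCCs, a log2 ratio of -0.07.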
